A study of Danio rerio with 8 samples.

Results

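Mitochondrial ribosomal proteins are the protein part of the ribosomes inside mitochondria. Their genes lie in the nucleus, and the proteins are imported and assembled with ribosomal RNAs made from mitochondrial DNA into a large and a small subunit. These ribosomes translate the few respiratory chain and ATP synthase subunits that mitochondrial DNA encodes, which in heart muscle are needed together with many nuclear-encoded subunits. Some of the proteins have a counterpart in bacterial ribosomes and others are found only in mitochondria.

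The genes were taken by symbol, as every gene whose name starts with mrpl or mrps and a digit, and 61 of the 21234 genes of the count table matched. The symbols put 37 of them in the large subunit (mrpl) and 24 in the small subunit (mrps). The rule itself reads symbols and no measured value, although the group of genes was picked with earlier results of these data known. Of the 61 genes, 11 were listed at 0 in every library, namely mrpl1, mrpl2, mrpl9, mrpl11, mrpl12, mrpl22, mrpl41, mrpl57, mrps26, mrps28 and mrps34, and the other 50 (29 mrpl and 21 mrps) had counts. Over all genes 36.7% were listed at 0 throughout, among them the cytosolic ribosomal protein genes rpl12 and rpl21. For these zeros, and for those of other genes below, it is not known whether the gene was silent or not counted.

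The libraries were made from polyadenylated RNA of adult zebrafish hearts, 4 from control fish and 4 from fish with Hmga1a overexpression. Hmga1a is a DNA-binding chromatin protein of the high mobility group A family. All fish carried cmlc2:dsred, a red fluorescent reporter under a heart muscle promoter, all samples are labelled 14 days post tamoxifen, and the treatment induced the overexpression in the overexpression group. Cells, labelled as cardiomyocytes, came from ventricles taken apart with collagenase and TrypLE. The series' design places this comparison in the uninjured heart. Nothing used here states the fishes' age, the promoter driving Hmga1a, how many fish made up a library or whether cells were sorted. The p-values therefore reflect only how much these samples vary, which may be technical.

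Control libraries held 49598 to 352807 corrected counts and overexpression libraries 302157 to 572295, and control 2 was the shallowest. Counts outside mitochondrially encoded genes were 16027 to 194514 in controls and 209378 to 371277 under overexpression, so depth for nuclear genes did not overlap. Detection of the members and the passing of count filters go with this depth, and its part in the results was not tested. Levels are given as CPM, the counts of a gene relative to the library's total, after TMM scaling, a scaling that centres most genes between libraries. In control 2, 1 count corresponds to about 28.5 CPM. For hmga1a itself the controls held 120.1, 28.5, 70.5 and 55.4 CPM and the overexpression libraries 76.1, 124, 121 and 122 CPM, so the groups overlapped. Its log2 fold change of 0.47 ± 0.30 (SE) did not pass the test (adjusted p = 0.177). The value turned to −0.60 when libraries were scaled on contractile genes and passed with library totals alone, with a looser filter or without control 1 (adjusted p from 0.0397 to 0.0444), and whether the transgene's RNA is counted under this gene is not known. The dsRED reporter was 2.36 ± 0.17 higher on the log2 scale in the overexpression libraries (adjusted p = 1.93e-12), at 2136 to 3539 CPM against 514 to 592. An eGFP entry, whose construct is not described, stood at 53.2, 228, 65.5 and 139 CPM in controls and 579, 499, 638 and 569 CPM under overexpression, apart by 2.60 ± 0.26 (adjusted p = 1.21e-09).

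The cardiomyocyte markers actc1a, tnni1b and tnnt2a were all detected and higher in the overexpression libraries, while myl7 was at or near 0 in both groups. The summed levels of endothelial, fibroblast and leukocyte markers moved the opposite way. Chosen markers whose symbols are not in the count table are left out of these lists. The 4 endothelial markers in the table summed to 136.0 to 224 CPM in controls and 42.4 to 96.5 CPM under overexpression, with cdh5 at 0. The 5 fibroblast and epicardial markers summed to 205 to 571 against 31.2 to 75.1 CPM, with tbx18 at 0. In controls col1a1b held 279 of their mean of 349 CPM. The 7 leukocyte markers summed to 3134 to 5948 against 1308 to 1812 CPM, with coro1a at 0 and lyz and mpx at or near 0. In controls cd74a held 3792 and cd74b 1013 of their mean of 4968 CPM, so these sums rest mostly on few genes. The 3 erythrocyte markers were at 0 throughout, and of the 3 thrombocyte markers 2 were at 0 and the summed level stayed between 0 and 5.75 CPM. Since the cardiomyocyte marker myl7 was at or near 0 too, a 0 does not show that a cell type was absent. The part of these other cells in the results that follow was not tested, and in bulk samples fewer cells of a type cannot be told apart from less RNA per cell.

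Large-subunit genes together held 173, 29, 73 and 149 counts in controls 1 to 4 and 666, 837, 547 and 1075 counts in overexpression libraries 1 to 4. As summed levels these were 460.0, 826, 367 and 515 CPM in the controls and 1485, 1305, 1572 and 1669 CPM under overexpression. No control reached the lowest overexpression library, and the highest control was the shallow control 2. The means were 542 ± 199 and 1508 ± 155 CPM (SD, n = 4), a 2.78-fold difference, given with no test because the sum is over chosen genes.

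The small-subunit genes gave nearly the same ratio. Their counts were 123, 15, 73.1 and 105 in the controls and 520.2, 650.1, 385 and 666 under overexpression, or 327, 427, 368 and 363 CPM against 1159, 1013, 1108 and 1034 CPM. The groups were again apart, with means of 371 ± 41.6 and 1079 ± 67.3 CPM (SD, n = 4), a 2.90-fold difference. As the difference of mean log2 sums, the large subunit stood 1.54 ± 0.36 higher and the small subunit 1.54 ± 0.13 higher. The spread given is the SD between libraries within a group, pooled over both groups. Both sums come from the same libraries, so this spread is not that of the difference between the subunits. That difference is read within each library below.

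**Figure D1:**
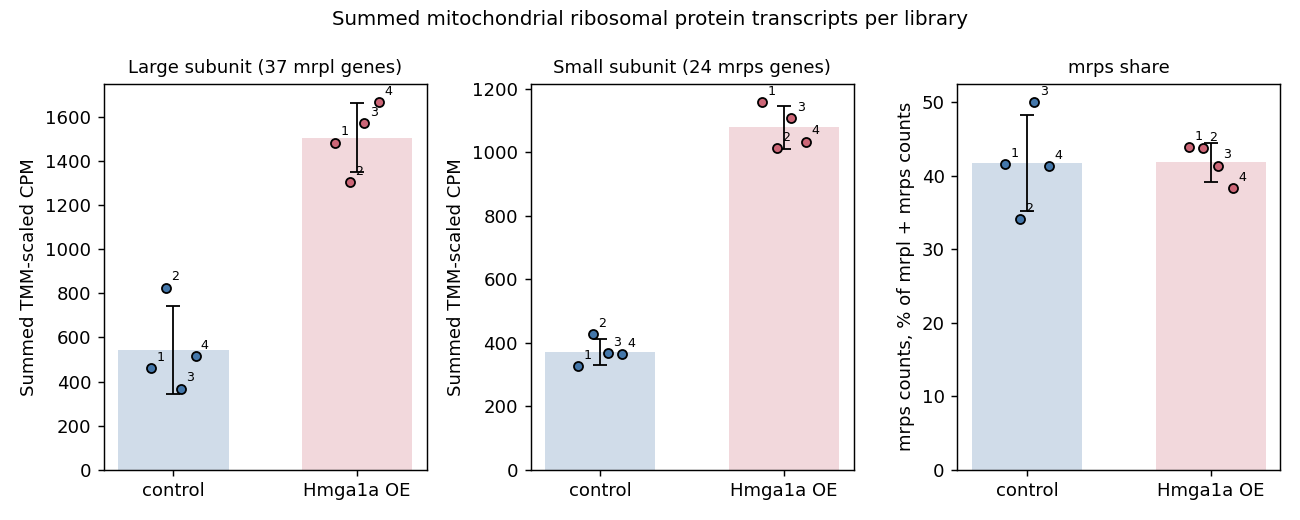
Summed TMM-scaled CPM of the 37 mrpl genes and the 24 mrps genes, and the mrps share of their counts in percent, in each library (points, numbered by sample; bars and error bars are mean and SD, n = 4). Both sums lie higher in all 4 overexpression libraries, with controls below 827 and 428 CPM, while the mrps share overlaps between the groups.

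The balance of the subunits within a library needs no scaling between libraries. Small-subunit genes made up 41.5, 34.1, 50.01 and 41.3% of the members' counts in controls 1 to 4 and 43.8, 43.7, 41.4 and 38.3% under overexpression. Exact (Clopper-Pearson) 95% intervals, which cover counting error only, were wide at low depth, from 20.5 to 49.9% in control 2, and narrow in the deepest library, from 35.9 to 40.6% in overexpression 4. The groups overlapped, at 41.7 ± 6.51% and 41.8 ± 2.62% (SD, n = 4). The mean difference was 0.04 percentage points.

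The symbols do not give the position in the ribosome in every case. In the human mitochondrial ribosome the product of MRPS18A sits in the large subunit, and MRPS36 is now regarded as a part of the oxoglutarate dehydrogenase complex of the citric acid cycle rather than of the ribosome. With mrps18a moved to the large subunit and mrps36 left out, the small-subunit share was 35.3, 25, 38.9 and 33.3% in controls and 33.8, 33.3, 32.8 and 30.8% under overexpression. Those groups overlapped too, with means of 33.1 ± 5.90% and 32.7 ± 1.30% (SD, n = 4). The gene mrps36 alone held 13.0 to 27.4% of the mrps counts in controls and 20.2 to 25.4% under overexpression. Shares are of counts, with no correction for how well each gene is captured.

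The fit across all genes with edgeR's quasi-likelihood test kept 2501 genes, and 30.4% of these were higher and 29.2% lower under overexpression at an adjusted p under 0.05. Of the 50 members with counts 34 were tested, 20 mrpl and 14 mrps. The filter's level was 28.7 CPM, taken before TMM scaling. All 34 reached it in the 4 overexpression libraries and 1 reached it in all 4 controls. These genes thus entered the test through the group in which they were high. The counts and medians from this fit therefore follow in part from the filter, describe the tested genes only and support nothing. Of the tested large-subunit genes 19 of 20 were higher and of the small-subunit genes 13 of 14, with none lower. The median log2 fold change was 1.63 for mrpl and 1.66 for mrps, beside 0.01 over all genes tested. The fold changes of the tested members had an SD of 0.41 for mrpl and 0.39 for mrps, beside a median standard error of 0.44 and 0.45.

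A looser filter, at least 1 count in 4 libraries, tested all 50 members with counts among 8038 genes, of which 14.6% were higher and 12.5% lower. There 25 of 29 mrpl genes and 18 of 21 mrps genes were higher and none was lower. The fold change was above 0 for 50 of the 50 members and for 4125 of the 8038 genes. The medians were 1.94 for mrpl and 1.84 for mrps against 0.05 over all genes, and in this fit the median of the 2501 genes of the stricter one stood 0.30 higher. Over all members with counts the fold changes had an SD of 0.55 for mrpl and 0.50 for mrps, beside a median standard error of 0.51 and 0.54. The genes without a call were mrpl39, mrpl44, mrpl51, mrpl58, mrps5, mrps16 and mrps22. A filter on the mean over all 8 libraries (at least 10 CPM), chosen after the data were seen, tested 48 members among 4693 genes. Members could still pass this filter, or the looser one, on overexpression counts alone. An example is mrpl42, with means of 1.73 CPM in controls and 26.9 CPM under overexpression. The filter on the mean called 26 of 28 mrpl and 18 of 20 mrps genes higher and none lower. Over all its genes 23.4% were higher and 20.3% lower. When 1 control was left out of the stricter fit, 38 members were tested, and between 26 (without control 1, where 629 of 2670 genes were higher) and 37 (without control 2, where 861 of 2828 were higher) were called. When 1 overexpression library was left out, the lowest share was 31 of 34 members (without overexpression 4, where 753 of 2768 genes were higher). The highest was 35 of 37 members (without overexpression 2, where 753 of 2742 genes were higher).

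In TMM-scaled CPM, 30 of the 50 members had all 4 overexpression libraries above all 4 controls, beside 12.1% of the 8038 genes. Without control 2 it was 41 of 50, beside 14.9%. In control 2, 25 members had no count, 14 had 1 count and the highest had 4, so its zeros and its high values rest on single molecules. Summed over the 4 controls a member held 2.0 to 60.1 counts with a median of 12, and 19 members held fewer than 10, while over the overexpression libraries a member held 19.0 to 514.4 counts with a median of 94.3. Precision is therefore set by the controls.

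**Figure D2:**
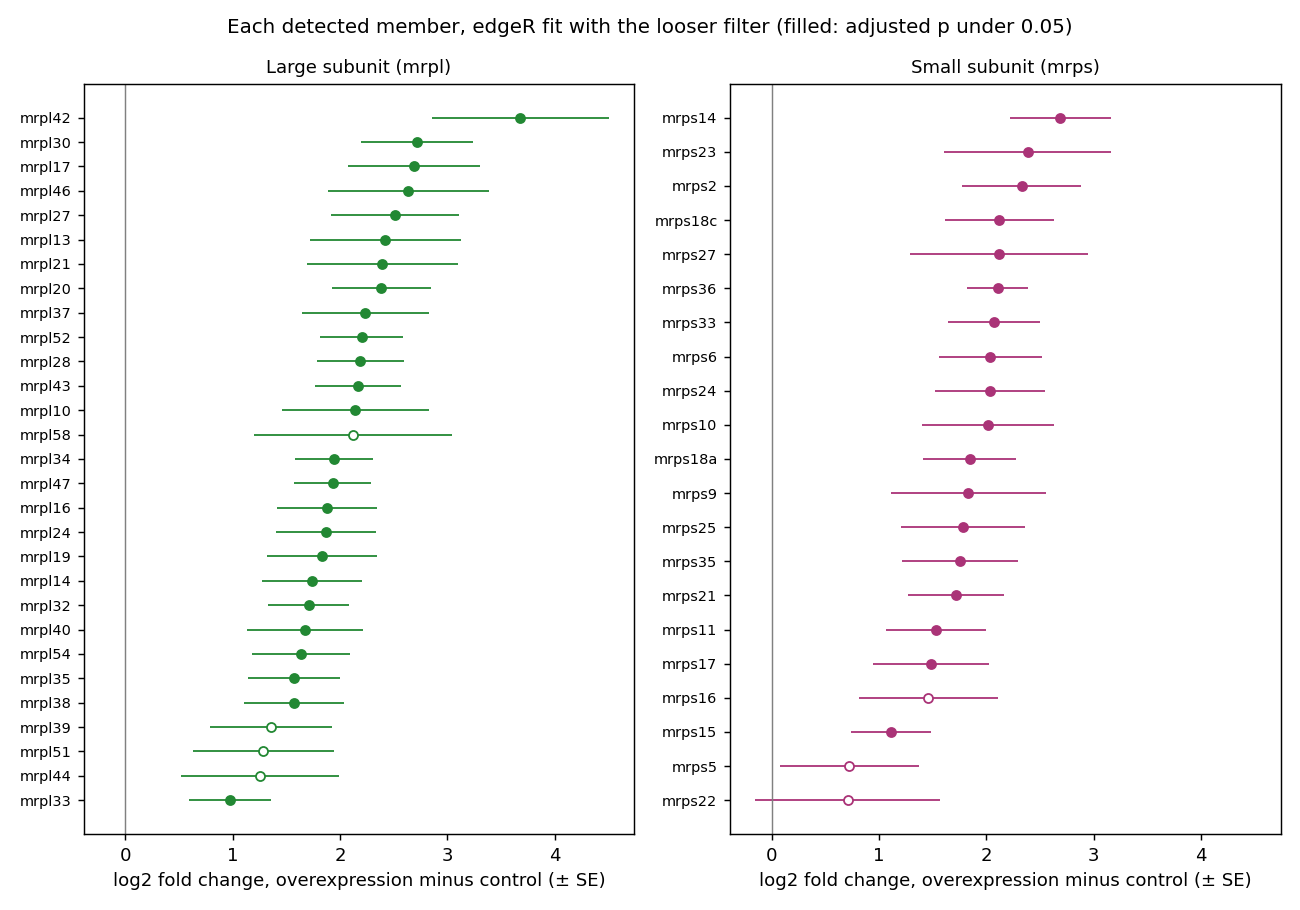
Log2 fold change (overexpression minus control, ± SE) of each of the 50 members with counts, in the edgeR fit with the looser filter, for mrpl genes (left) and mrps genes (right); filled points have an adjusted p under 0.05. Every point lies above 0, and 25 mrpl and 18 mrps points are filled.

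Among the large-subunit proteins with a bacterial counterpart, mrpl47, the homolog of bacterial L29 near the exit of the peptide tunnel, stood at 39.9, 114, 15.1 and 34.6 CPM in controls and 108, 123, 92.4 and 127 CPM under overexpression. Control 2, with 4 counts, overlapped the overexpression libraries and the other controls lay below them. The log2 fold change was 1.65 ± 0.34 (adjusted p = 0.000159). The small basic protein gene mrpl34 stood at 55.9, 28.5, 20.1 and 20.8 CPM against 109.8, 84.7, 124 and 121 CPM. Its groups were apart, at 1.65 ± 0.34 (adjusted p = 0.000143).

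The gene mrpl32, whose bacterial counterpart is L32 and whose product is matured in mitochondria by the m-AAA protease, was at 23.9, 57.0, 30.2 and 41.5 CPM in controls and 80.6, 70.5, 77.9 and 122 CPM under overexpression. All overexpression libraries were above all controls, with a log2 fold change of 1.42 ± 0.35 (adjusted p = 0.000881). The mitochondria-specific protein genes mrpl52 and mrpl43 differed in how cleanly the libraries separated. For mrpl52 the controls held 37.2, 57.0, 5.03 and 24.2 CPM and the overexpression libraries 109.8, 87.9, 113 and 96.9 CPM, apart by 1.92 ± 0.37 (adjusted p = 5.59e-05). For mrpl43 control 2, at 85.5 CPM, lay above overexpression 2 and 3, the other controls being 10.6, 25.2 and 31.1 CPM and the overexpression libraries 112, 56.4, 80.8 and 117 CPM. Its log2 fold change was 1.89 ± 0.41 (adjusted p = 0.000241).

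The largest fold changes among the tested mrpl genes were those of genes with few control counts. The gene mrpl30, of the L30 family, was at 5.31, 0, 5.03 and 20.8 CPM in controls and 85.1, 37.5, 46.1 and 56.1 CPM under overexpression. The groups were apart, at 2.44 ± 0.51 (adjusted p = 0.000163). The gene mrpl27, whose bacterial counterpart reaches the peptidyl transferase centre, held 2.66, 57.0, 15.1 and 3.46 CPM against 40.2, 37.5, 49.0 and 37.3 CPM, and control 2 alone overlapped, with 2.26 ± 0.58 (adjusted p = 0.00132). For mrpl13, of the L13 family, the values were 7.97, 28.5, 0 and 3.46 CPM against 24.5, 26.6, 25.9 and 26.4 CPM, with 2.15 ± 0.64 (adjusted p = 0.00505). The overlap again came from the single count of control 2.

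The tested mrpl gene that did not pass was mrpl33, the counterpart of bacterial L33. It stood at 50.6, 85.5, 25.2 and 31.1 CPM in controls and 62.6, 46.9, 77.9 and 74.9 CPM under overexpression, overlapping in 2 controls, with a log2 fold change of 0.69 ± 0.36 (adjusted p = 0.094). Without control 2 it was 0.83 and passed (adjusted p = 0.041). As a share of the members' counts it took 5.05 ± 1.82% in controls and 2.52 ± 0.40% under overexpression (SD, n = 4), a comparison made after its values were seen. The remaining tested mrpl genes, mrpl14, mrpl16, mrpl19, mrpl20, mrpl24, mrpl28, mrpl35, mrpl37, mrpl38, mrpl40 and mrpl54, had log2 fold changes from 1.28 (mrpl35 and mrpl38) to 2.09 (mrpl20), and all passed.

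**Figure D3:**
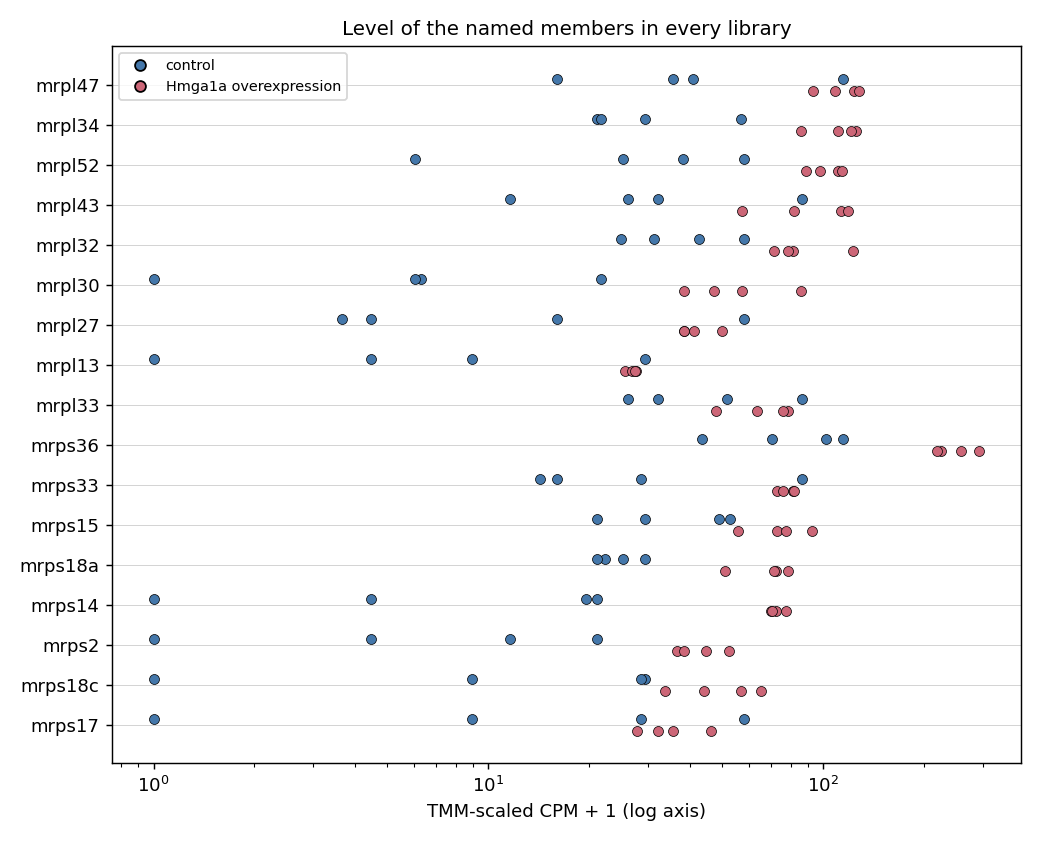
TMM-scaled CPM plus 1 (log axis) of the members described in full, in each control library (blue) and each Hmga1a overexpression library (red). For most genes the red points lie together on the right, while the controls scatter widely, from 0 to 114 CPM.

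Of the genes with small-subunit symbols, mrps36, the oxoglutarate dehydrogenase subunit gene named above, was the member best resolved. It stood at 42.6, 114, 101 and 69.3 CPM in controls and 292, 258, 224 and 218 CPM under overexpression. The groups were far apart, with 81.7 ± 32.1 against 248 ± 34.3 CPM (SD, n = 4) and a log2 fold change of 1.83 ± 0.26 (adjusted p = 6.68e-07). The gene mrps18a, which by the human structure belongs to the large subunit, was at 21.3, 28.5, 20.1 and 24.2 CPM against 71.6, 70.5, 77.9 and 49.8 CPM. Again no control reached an overexpression library, and the fold change was 1.56 ± 0.38 (adjusted p = 0.000765). Its relative mrps18c, which holds the place of bacterial S18 in the small subunit, was at 7.97, 28.5, 0 and 27.7 CPM against 55.9, 64.2, 43.2 and 32.7 CPM, apart by 1.84 ± 0.52 (adjusted p = 0.00297). Thus the S18 family genes assigned to different subunits both rose.

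Small-subunit proteins of bacterial origin included the gene with the largest fold change of the tested mrps genes, mrps14, of the S14 family. It held 18.6, 0, 20.1 and 3.46 CPM in controls and 71.6, 69.0, 69.2 and 76.5 CPM under overexpression. The overexpression libraries lay close together and all above the controls, with 2.40 ± 0.44 (adjusted p = 2.75e-05). The gene mrps2, of the S2 family, was at 10.6, 0, 20.1 and 3.46 CPM against 35.7, 43.8, 37.4 and 51.4 CPM, apart by 2.05 ± 0.51 (adjusted p = 0.001). For mrps33, a mitochondria-specific protein gene, controls were at 13.3, 85.5, 15.1 and 27.7 CPM and overexpression libraries at 80.6, 72.1, 75.0 and 81.2 CPM. Control 2 lay above all of them, and the fold change was 1.79 ± 0.40 (adjusted p = 0.000304).

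The smallest called fold change was that of mrps15, of the S15 family, at 47.9, 28.5, 20.1 and 51.9 CPM in controls and 91.8, 54.8, 72.1 and 76.5 CPM under overexpression. The groups just separated, at 0.82 ± 0.34 (adjusted p = 0.038). The call did not hold without control 1, control 3, overexpression 1 or overexpression 4 (adjusted p from 0.0544 to 0.158). The gene mrps17, of the S17 family, did not pass, at 7.97, 57.0, 0 and 27.7 CPM against 26.8, 45.4, 34.6 and 31.1 CPM, overlapping in controls 2 and 4, with 1.21 ± 0.54 (adjusted p = 0.0547). The remaining tested mrps genes, mrps6, mrps11, mrps21, mrps24, mrps25 and mrps35, passed with log2 fold changes from 1.24 (mrps11) to 1.76 (mrps24).

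The 16 members too low for the stricter filter were read from the looser fit. The gene mrpl42, a mitochondria-specific large-subunit protein, held 0, 0, 0 and 2.0 counts in controls and 16.0, 13.0, 6.0 and 22.1 counts under overexpression. Its groups did not overlap and its fitted log2 fold change was 3.68 (adjusted p = 9.43e-05), a size that depends on the prior count since 3 controls were at 0. The gene mrpl17, of the L17 family, held 1.0, 0, 3.0 and 2.0 counts against 21.1, 26.1, 6.0 and 27.1, at 2.69 ± 0.62 (adjusted p = 0.000142). At the other end, mrps22 held 2.0, 0, 1.0 and 3.0 counts against 6.0, 7.0, 1.0 and 5.0, at 0.71 ± 0.86 (adjusted p = 0.591). The gene mrps5 held 1.0, 0, 6.0 and 4.0 counts against 9.0, 3.0, 7.0 and 17.0, at 0.72 ± 0.65 (adjusted p = 0.445). For these a difference was not detectable at this depth. The genes mrpl10, mrpl21, mrpl46, mrps9, mrps10, mrps23 and mrps27 were called higher, and mrpl58, which encodes a peptidyl-tRNA hydrolase built into the large subunit, was not, at 2.12 ± 0.92 (adjusted p = 0.0709).

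The members were also counted by evolutionary origin, and the difference between the classes was not tested. Of the tested members with a bacterial counterpart, 21 of 23 were higher with a median of 1.65, and of the tested mitochondria-specific members 10 of 10 were higher with a median of 1.53, beside 30.4% higher of all genes tested. The limit given above for the filter of that fit holds for these counts and medians too. Over all members with counts, the looser fit called 28 of 30 and 14 of 19, with medians of 1.94 and 1.84, beside 14.6% higher of all genes. The class with the larger share called thus was not the same in both fits. The S18 family gene mrps18a was counted as mitochondria-specific, although its relative mrps18c was counted with a bacterial counterpart. The gene mrps36 was in neither class.

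Most of the other genes of mitochondrial translation were not tested in the stricter fit. Of 56 listed genes for translation factors, tRNA synthetases, assembly factors and ribosomal proteins with other names, 15 were at 0 in all libraries and 6 were tested, of which 5 were higher and none lower, beside 30.4% higher of all genes tested. The gene c1qbp, for a matrix protein that binds the mitochondrial ribosome, stood at 109, 257, 126 and 132 CPM against 431, 394, 469 and 357 CPM, apart by 1.65 ± 0.21 (adjusted p = 1.39e-07). The RNA-binding pair slirp and lrpprc, which stabilises mitochondrial messenger RNAs, was higher by 1.92 ± 0.44 (adjusted p = 0.000401) and 1.05 ± 0.42 (adjusted p = 0.0305). The gene for the inner-membrane insertase oxa1l was higher by 1.88 ± 0.47 (adjusted p = 0.00103), and the small-subunit protein gene chchd1 by 1.49 ± 0.48 (adjusted p = 0.00806). The gene aurkaip1, for another small-subunit protein, did not pass, at 0.92 ± 0.50 (adjusted p = 0.11).

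In the looser fit 37 of these genes were tested and 12 were higher with none lower, beside 14.6% of all genes. They included the small-subunit protein genes dap3 at 1.85 ± 0.60 (adjusted p = 0.0107) and ptcd3 at 3.05 ± 0.93 (adjusted p = 0.00643), and the assembly GTPase genes mtg1 (adjusted p = 0.0435) and mtg2 (adjusted p = 0.0179). Of the 10 genes tested for mitochondrial tRNA synthetases and tRNA amidation, rars2 alone was higher, with no control count and 1.0, 2.0, 3.0 and 4.0 counts under overexpression. For the other 9 a difference was not detectable at this depth.

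Nuclear genes of the respiratory chain and ATP synthase, the partners of the proteins these ribosomes make, showed fold changes of like size. Of 52 tested, 51 were higher and none lower, beside 30.4% higher of all genes tested. The median log2 fold change was 1.63, beside 1.63 and 1.66 for mrpl and mrps. The limit given above for the filter of this fit holds for these medians too. In the looser fit, which kept every member with counts, 53 of 57 were higher, beside 14.6% of all genes. The median there was 1.90, beside 1.94 and 1.84. Within each library the members held 5.94, 5.84, 4.86 and 4.80 counts per 100 counts of the nuclear respiratory chain genes in controls and 5.48, 5.10, 5.16 and 5.41 under overexpression. The groups overlapped, at 5.36 ± 0.61 and 5.29 ± 0.19 (SD, n = 4). This ratio does not depend on the scaling between libraries.

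Against contractile genes the ratio did move. Members held 4.25, 4.16, 3.43 and 3.74 counts per 100 contractile counts in controls and 5.86, 5.53, 5.19 and 6.35 under overexpression, with no overlap and means of 3.90 ± 0.38 and 5.73 ± 0.50 (SD, n = 4). Of 19 contractile genes tested, 13 were higher and 3 lower, with a median of 1.26. Over all genes tested 30.4% were higher and 29.2% lower. The 3 lower genes were ttn.1 (−1.77), ttn.2 (−2.01) and myh6 (−4.00), each below all controls in all 4 overexpression libraries. Their counts are part of the contractile counts in the ratio. Of them ttn.2 had means of 2263 CPM in controls and 575 CPM under overexpression. The whole list summed to means of 23384 and 45309 CPM. The separation therefore holds for the list as chosen, and the ratio without these 3 genes was not taken. When libraries were scaled on contractile genes instead, the median over all genes fell by 1.05 on the log2 scale, and 5% of all genes tested were higher and 55.8% lower. Under that scaling 3 of the 34 tested members (mrpl30, mrps14 and mrps36) were called higher and none lower. Of these, mrps36 is the gene regarded above as no part of the ribosome. In that fit 32 members stayed above 0, beside a median of −1.04 over all genes tested, and mrpl33 and mrps15 turned to −0.39 and −0.23. The summed levels were then 0.56 and 0.57 higher on the log2 scale for mrpl and mrps, against 1.54 with TMM scaling. Whether the share of heart muscle RNA differed between the groups, and how much of the difference in the sums goes with it, was not tested.

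Cytosolic ribosomal protein genes, which build the ribosomes outside mitochondria, moved less. Of 55 tested, 46 were higher and none lower, beside 30.4% higher of all genes tested, but with a median of 0.58. Under contractile scaling 27 were lower and none higher, beside 55.8% lower and 5% higher of all genes tested. Members held 1.5, 2.74, 1.35 and 1.48 counts per 100 cytosolic ribosomal protein counts in controls and 3.20, 3.11, 3.20 and 3.37 under overexpression. The groups were apart, with means of 1.77 ± 0.65 and 3.22 ± 0.11 (SD, n = 4), and control 2 stood nearest to the overexpression libraries.

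Transcripts of the mitochondrial genome itself, which these ribosomes translate, moved the opposite way under TMM scaling. Of the 13 named mitochondrially encoded genes 12 were lower and none higher, with a median of −0.95, beside 29.2% lower of all genes tested. The mitochondrial share of all counts was 44.9 to 67.7% in controls and 28.1 to 35.1% under overexpression. The gene mt.nd5, for a complex I subunit, stood at 3710.3, 3031, 4174 and 4972 CPM in controls and 1651, 1906, 2049 and 1968 CPM under overexpression, at −1.09 ± 0.15 (adjusted p = 2.33e-07). Several of these genes used nearly all identifiers, which makes their counts imprecise, so the ratio was taken over the 4 genes that used under 50% of them, mt.atp8, mt.nd4l, mt.nd5 and mt.nd6. Members held 12.9, 25.5, 10.2 and 9.89 counts per 100 counts of these genes in controls and 86.2, 69.5, 79.7 and 69.2 under overexpression, with no overlap. Over all 13 genes the ratio was 0.220 to 0.363 per 100 in controls and 1.37 to 1.66 under overexpression.

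**Figure D4:**
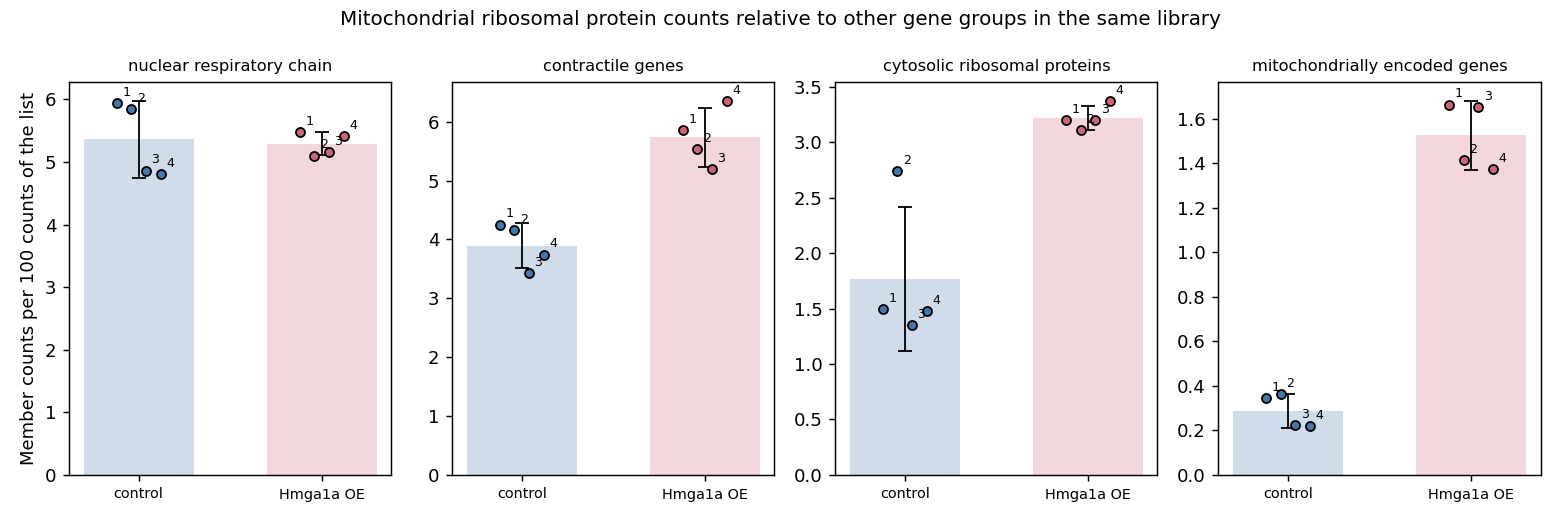
Counts of the 61 members per 100 counts of nuclear respiratory chain, contractile, cytosolic ribosomal protein and mitochondrially encoded genes in the same library (points, numbered by sample; bars and error bars are mean and SD, n = 4; each panel has its own axis). The groups overlap against the nuclear respiratory chain, at 5.36 and 5.29, and are apart in the other panels. The contractile list includes ttn.1, ttn.2 and myh6, which were lower under overexpression.

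**Figure D5:**
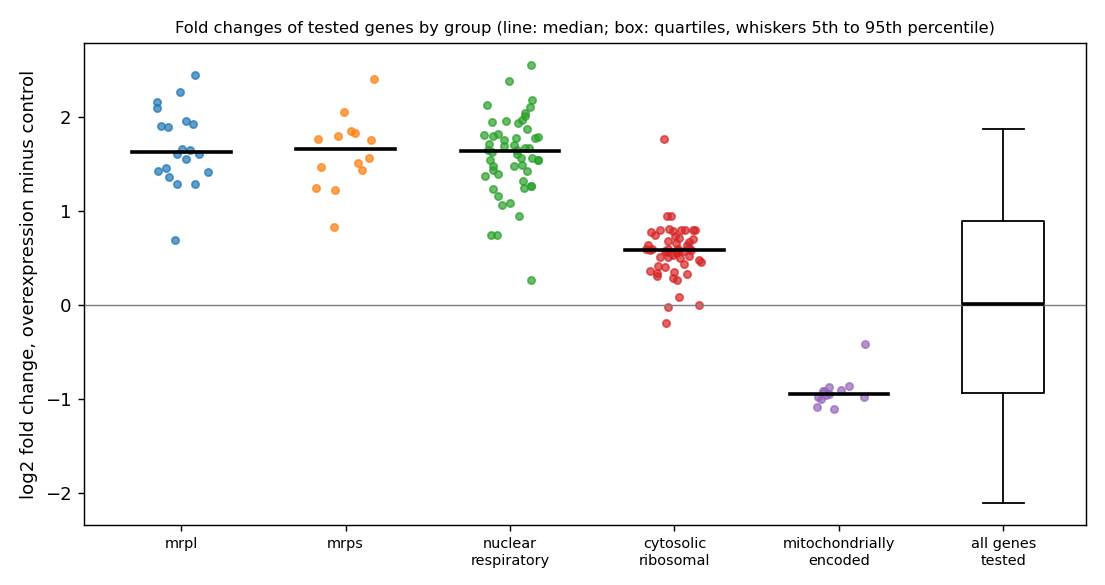
Log2 fold change (overexpression minus control) of each tested gene in 5 gene groups, with a line at the median, and over all 2501 genes tested (box at the quartiles, whiskers at the 5th and 95th percentile). The medians are 1.63 for mrpl, 1.66 for mrps, 1.63 for the nuclear respiratory chain, 0.58 for cytosolic ribosomal proteins, −0.95 for mitochondrially encoded genes and 0.01 over all genes.

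The authors' deposited table compares controls 1, 3 and 4 with overexpression libraries 2, 3 and 4, so it shares its samples with the values above and leaves out control 2. It lists 29 mrpl and 21 mrps genes among 7998 genes. Of the mrpl genes 26 and of the mrps genes 18 were higher at an FDR under 0.05 in the authors' deposited table and none was lower, where 14.2% of all its genes were higher and 12.2% lower. The median log2 fold change in the authors' deposited table was 2.22 for mrpl and 1.85 for mrps, against 0.03 over all its genes.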

How the data were processed

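For each of the 8 libraries the authors deposited estimated counts by gene. These are unique molecular identifiers after a correction for repeated use, as read from the values: with 4096 identifiers the correction turns 100% of 62181 non-zero values back into whole numbers (tolerance 0.01). The submitters' processing notes name danRer11 and edgeR; the aligner, the counter and strand use are, in the sources used here, not given. The authors' deposited comparison gives log2 fold changes, CPM on a log2 scale and p-values with FDR; their gene ontology table gives counts, fold enrichment and p-values. A total of 12 per-sample columns in further deposited tables were not used.

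Counts were rounded, 67 spike-in entries removed, and genes tested with edgeR 4.0.16 (R 4.3.3, limma 3.58.1): TMM on library totals, filterByExpr with a minimum count of 10, robust quasi-likelihood fit, Benjamini-Hochberg adjustment over all genes tested, threshold 0.05. Standard errors are the log2 fold change divided by the square root of F. The self-test on simulated counts for this comparison (2494 genes) recovered 31.6% of 2-fold and 97.8% of 4-fold changes, with 3.97% false calls. The changes were simulated in genes well above the control counts of most members, and with a fixed dispersion. These rates therefore need not hold for the members. Chi-square per degree of freedom showed no library deposited more than once. Named members are, per subunit, the 5 with the highest mean CPM, the 3 with the largest fold change and those that did not pass, plus mrps18a, mrps18c and mrps36 for their position. The members and the gene lists were chosen with earlier results of these data known. Alternatives tried were other scalings, filters, DESeq2 1.42.0, a replicate block and leaving out libraries. Genes such as mrps18b and mrps30 were not analysed here. No sequences are shown, because no sequence table was used here.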

Additional observations from a re-analysis of the deposited data

Results flagged for a closer look

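In both of the ratios listed here control 2, the library with the fewest counts, lay far from the other 3 controls relative to the range of its group. The members held 27.5 counts per 10000 counts outside mitochondrially encoded genes in control 2, against 15.2, 14.2 and 16.4 in controls 1, 3 and 4, and its gap was 0.832 of the group's range. They held 2.74 counts per 100 cytosolic ribosomal protein counts there, against 1.5, 1.35 and 1.48, with a gap of 0.895 of the range. Both gaps pass Dixon's critical value for 4 samples, and with 56 groups of 4 libraries examined chance flags about 1 in 20. Both values rest on 44.0 member counts in that library.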

How the results depend on the processing

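Direction held for every tested member under TMM without mitochondrially encoded genes, DESeq2 size factors, DESeq2's test, the filters, the replicate block and each library left out. The results moved most with the scaling. With library totals alone 977 of 2501 genes were higher and 481 lower (67.0% of calls higher against 51.0%), and 34 of 34 members were higher. The summed levels were then 1.99 (mrpl) and 2.00 (mrps) higher on the log2 scale, and the median over all genes shifted by 0.38. With scaling on contractile genes 125 genes were higher and 1396 lower (8.22% of calls higher); calls higher were 1 mrpl, 2 mrps, 1 mitochondrial translation, 30 respiratory chain, 0 cytosolic ribosomal (27 lower) and 6 contractile genes (6 lower), the sums were 0.56 and 0.57, and hmga1a, mrpl33 and mrps15 turned to −0.60, −0.39 and −0.23. The median of mrpl minus that of all genes was 1.60 under both scalings and 1.62 with TMM. A change of scaling shifts all genes by nearly the same amount, so this difference stays nearly fixed by construction and tests nothing.

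The looser filter gave 1174 of 8038 genes higher and 12 of 37 mitochondrial translation genes higher. A filter with a minimum count of 30 gave 328 higher and 368 lower of 1002 genes. There 3 mrpl, 1 mrps, 1 mitochondrial translation and 12 cytosolic ribosomal genes were higher (3 lower). Only 4 members were tested. Leaving out 1 library gave summed log2 differences of 1.38 to 1.81 (mrpl) and 1.42 to 1.66 (mrps). Of the 34 to 38 members tested it gave 16 to 22 mrpl and 10 to 15 mrps genes higher, beside 629 to 861 of 2670 to 2828 genes. Without control 2 and overexpression 1, 31 of 34 members were higher, beside 778 of 2661 genes. The call of mrps15 was also lost with DESeq2 (adjusted p = 0.0649) and with TMM without mitochondrially encoded genes (0.0508). The hmga1a gene passed with library totals (0.82, adjusted p = 0.0397), the looser filter (0.77, adjusted p = 0.0437) and without control 1 (0.85, adjusted p = 0.0444).

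Nothing used here states that the sample numbers pair the libraries. Deviations of libraries with the same number correlated at −0.06 to 0.01, which at this depth does not settle whether libraries were paired. With a replicate block 698 genes were higher and 656 lower, and 31 of 34 members were higher, mrps25 no longer (1.38, adjusted p = 0.0513). The description of promoter motifs was not run, because no promoter table was used here. The controls' counts, with a median of 12 per member, limit the precision of single genes.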

Other observations

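Of 9 listed regulators of mitochondrial gene expression outside the lists above, 3 were tested. Among these 2 were higher and 1 lower, beside 30.4% higher and 29.2% lower of all genes tested. The gene esrra, for a nuclear receptor that regulates energy metabolism genes, was at 50.6, 57.0, 25.2 and 48.5 CPM in controls and 98.6, 99.0, 113 and 146 CPM under overexpression, higher by 1.37 ± 0.31 on the log2 scale (adjusted p = 0.000415). The gene tfb2m, for the mitochondrial transcription factor B2, was higher by 1.58 ± 0.45 (adjusted p = 0.00328). The coactivator gene ppargc1b was at 158, 171, 131 and 233 CPM against 94.0, 65.8, 89.5 and 74.9 CPM, below all controls in all 4 overexpression libraries, at −1.14 ± 0.25 (adjusted p = 0.000331). In the looser fit, which tested 9, 3 were higher and 1 lower, beside 14.6% higher and 12.5% lower of all its genes. The call added there was that of gabpb1, for a subunit of the GA-binding transcription factor, with no count in any control and 2.0, 10.01, 3.0 and 1.0 counts under overexpression (adjusted p = 0.0137). The gene ppargc1a was at 0.01 ± 0.59 (adjusted p = 0.995) and tfam at 0.95 ± 0.66 (adjusted p = 0.299), and neither passed; gabpa, polrmt and twnk did not pass either.

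A gene listed in capitals as MRPS12 lies outside the rule on symbols. It held 10.01, 4.0, 4.0 and 4.0 counts in controls and 38.2, 40.2, 22.1 and 55.4 counts under overexpression, with a log2 fold change of 1.53 ± 0.40 (adjusted p = 0.00178). In CPM the groups overlapped, since control 2 stood at 114 CPM, above the overexpression libraries at 62.7 to 85.9 CPM, and the other controls at 13.8 to 26.6 CPM.

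Among the 60 members matched by symbol in RefSeq's zebrafish annotation (GRCz12tu, used for gene order only), mrps11 and mrpl46 are neighbouring protein-coding genes. The gene mrps11 was higher by 1.24 ± 0.47 (adjusted p = 0.0236), and in the looser fit mrpl46 was higher by 2.64 ± 0.75 (adjusted p = 0.00307).

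In the authors' deposited gene ontology table, the term for the mitochondrial large ribosomal subunit holds 22 genes at 10.6-fold enrichment (Benjamini-adjusted p = 3.75e-15) and that for the small subunit 12 genes at 11.6-fold (Benjamini-adjusted p = 4.02e-08). These come from the same libraries and are no independent evidence.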
